A study of Mus musculus with 22 samples.

Results

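The 10 genes described here build, supply and answer the glucocorticoid signal in fat: the receptors Nr3c1 and Nr3c2, the activating enzymes Hsd11b1 and H6pd, the receptor co-chaperones Fkbp5 and Fkbp4, and the induced genes Tsc22d3, Sgk1, Dusp1 and Errfi1. They were chosen by name, as the biological spots of the arrays that carry these gene symbols; the names were proposed with earlier results of these data known. All 10 had a spot, on 11 probes. Of them 9 could be tested, among the 16578 genes tested in all. Nr3c2 was the exception, since its signal was well above background in the mouse channel on only 4 of 22 arrays.

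The question was how fat reacts when inhaled oxygen is lowered for some hours. Epididymal fat, the pad beside the epididymis, came from male mice of the inbred strain C57BL/6JOlaHsd that were 10 weeks old on arrival, were individually housed, and ate purified feed, first for 3 weeks with fat as 10% of its energy and then for 6 weeks with 40%. After fasting, 12 mice stayed in normoxia (20.9% oxygen) and 10 were put in hypoxia (12% oxygen) for 6 hours, and each mouse is 1 array. Each mouse's RNA, in Cy5, was hybridised with a common Cy3 pool made from all mice, without dye swaps, so values are log2 ratios to the pool and only differences between the groups are read. No transgene or deletion is named for either group, and one protocol sentence sets high-fat beside low-fat feeding but assigns no mouse to the latter.

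Glucocorticoids such as corticosterone are adrenal steroids released in stress and fasting. In a resting cell the receptor waits in the cytoplasm in a complex with Hsp90 and the immunophilin Fkbp5, which holds its affinity for hormone low; on binding, Fkbp4 takes that place and links the complex to dynein for transport into the nucleus. There the receptor induces genes through response elements, Fkbp5 among them, so that the receptor raises its own inhibitor. In fat the hormone is also made locally: Hsd11b1 in the endoplasmic reticulum turns inactive 11-dehydrocorticosterone into corticosterone, using NADPH that H6pd supplies in the same compartment. Circulating hormone was not analysed here.

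The stretch of 250 bases before the annotated start is shown for 5 feedback genes, because these are the members that stood highest in hypoxia and their upstream letters show which known elements lie there. The sequences are RefSeq's on GRCm38.p6, in the direction of the gene. Sgk1 is at chr10:21993640-21993889 (plus strand, 1 of 6 annotated starts), Tsc22d3 at chrX:140600523-140600772 (minus strand, 1 of 3 starts), Fkbp5 at chr17:28486150-28486399 (minus strand), Dusp1 at chr17:26508473-26508722 (minus strand) and Errfi1 at chr4:150854820-150855069 (plus strand, 1 of 2 starts). Where a gene has several starts, the one whose window holds the most complete elements is shown. Capitals mark matches, on either strand, to the palindromic glucocorticoid response element (GNACA and TGTNC with 3 free bases between them), its single arm AGAACA, the hypoxia response element core ACGTG or GCGTG, and the cyclic AMP response element TGACGTCA.
Sgk1: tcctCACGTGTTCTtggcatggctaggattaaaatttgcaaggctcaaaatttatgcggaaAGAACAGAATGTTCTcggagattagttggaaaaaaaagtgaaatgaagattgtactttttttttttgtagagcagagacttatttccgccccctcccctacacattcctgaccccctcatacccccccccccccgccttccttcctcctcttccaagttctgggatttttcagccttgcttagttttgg
Tsc22d3: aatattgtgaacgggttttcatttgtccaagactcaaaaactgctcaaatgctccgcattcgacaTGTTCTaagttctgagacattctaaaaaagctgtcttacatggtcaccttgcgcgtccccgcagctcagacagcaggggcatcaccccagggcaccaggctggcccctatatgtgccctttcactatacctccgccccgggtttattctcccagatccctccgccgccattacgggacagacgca
Fkbp5: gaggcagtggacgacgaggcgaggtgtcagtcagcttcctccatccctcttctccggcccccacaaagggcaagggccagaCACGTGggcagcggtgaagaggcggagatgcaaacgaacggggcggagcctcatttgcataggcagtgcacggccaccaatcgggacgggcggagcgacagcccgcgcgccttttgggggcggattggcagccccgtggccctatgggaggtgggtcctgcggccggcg
Dusp1: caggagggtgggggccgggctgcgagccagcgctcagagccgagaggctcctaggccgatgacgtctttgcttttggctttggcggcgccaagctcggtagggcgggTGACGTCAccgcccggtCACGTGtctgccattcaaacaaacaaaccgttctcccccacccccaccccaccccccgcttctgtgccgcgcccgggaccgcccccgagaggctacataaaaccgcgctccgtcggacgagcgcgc
Errfi1: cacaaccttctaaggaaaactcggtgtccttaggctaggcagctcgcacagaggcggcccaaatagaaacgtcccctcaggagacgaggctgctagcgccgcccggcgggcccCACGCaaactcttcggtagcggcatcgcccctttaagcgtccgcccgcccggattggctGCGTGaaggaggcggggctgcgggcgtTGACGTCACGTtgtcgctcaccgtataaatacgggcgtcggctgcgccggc
The Sgk1 window holds a full palindromic element, GAACAGAATGTTC, 176 to 188 bases before that start, where both sides also match the single arm. Of 32851 such windows in the table, 0.387% hold a match to that palindrome. Near its far end the same window has the letters CACGTGTTCT, in which a hypoxia response element core and a single arm overlap. Tsc22d3 has 1 single arm, TGTTCT, which 16.1% of all windows hold. Fkbp5 has CACGTG, a core that reads on both strands, and 38.6% of all windows hold a core. Dusp1 and Errfi1 each have the cyclic AMP response element, found in 1.55% of all windows, and Dusp1 also has CACGTG while Errfi1 has 3 cores, 1 of which overlaps that element. Over the 17 windows of the 9 members in the table, 1 held the palindrome, 5 a single arm, 8 a core and 2 the cyclic AMP response element. The shares are per window, while the windows shown for Sgk1, Tsc22d3 and Errfi1 were picked among several for their elements. Matches are letters only, and elements farther away or inside a gene lie outside these windows.

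The probes are 60 bases long, and the first 30 bases are shown for the 6 members with the smallest p-values, because the probe fixes which RNA is measured. On mm9, the build of the files, they lie at chr17:28536060-28536119 (Fkbp5, minus strand), chrX:137074094-137074153 (Tsc22d3, minus strand), chr10:21719507-21719566 (Sgk1, plus strand), chr4:150242886-150242945 (Errfi1, plus strand) and chr4:149353626-149353685 (H6pd, minus strand). For Dusp1 the files give only a span of 11 bases at chr17:26642526-26642536 (minus strand). The exon under each probe is not given, since no genome of that build was used here.
Fkbp5 probe: gggaggccctgtctcaaaacaaaacaaaaa
Tsc22d3 probe: ctgctgtacgactccaggatttggatttgg
Sgk1 probe: gtatcgtgtaaaggaagtctgtacattggg
Errfi1 probe: ctccgcactgtgtgtacagtattggacaaa
Dusp1 probe: gcgtatgagagtttttacctttatttattt
H6pd probe: tacgaatctgtctcaggaaggagctctcag
The first 30 bases of the Fkbp5 probe end in a run rich in A. The probe shares a run of at least 14 bases with 28 of the array's 55681 biological probes, and the other 8 tested members' probes share such a run with 0 to 2. At 16 bases the number for Fkbp5 was 6 and at 18 bases it was 0. Of the 28 probes, 13 stand for tested genes, and their differences between hypoxia and normoxia ran from -0.22 to 0.060 with a median of -0.068. The comparison covered only the array's own probes, read on the same strand, and not the transcripts of the tissue or repeats in them. Whether other transcripts bind the Fkbp5 probe was not tested.

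The feedback genes had higher means in hypoxic fat, though none passed the adjusted threshold, and no shift of the receptor was detected. Errfi1 was higher by 1.42-fold, Fkbp5 by 1.37-fold, Sgk1 by 1.35-fold, Dusp1 by 1.28-fold, Tsc22d3 by 1.22-fold and H6pd by 1.19-fold in the mean of 10 hypoxic over 12 normoxic mice. None of the 9 tested members passed an adjusted p of 0.05 in limma's fit over all genes, and neither did any other gene (0% called). At an unadjusted p under 0.05, 6 of 9 members were higher and 0 lower, where 2.58% of all genes tested were higher and 2.73% lower (5.3% in either direction). In all 8 of 9 members lay above 0, where 50.4% of all genes did. The members' median difference was 0.28 on the log2 scale and that of all genes 0.0011. Since the members were proposed with earlier results of these data known, these shares are no independent evidence of a direction. The smallest adjusted p of any gene was 0.0691, and standard errors of the differences had a median of 0.098.

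**Figure D1:**
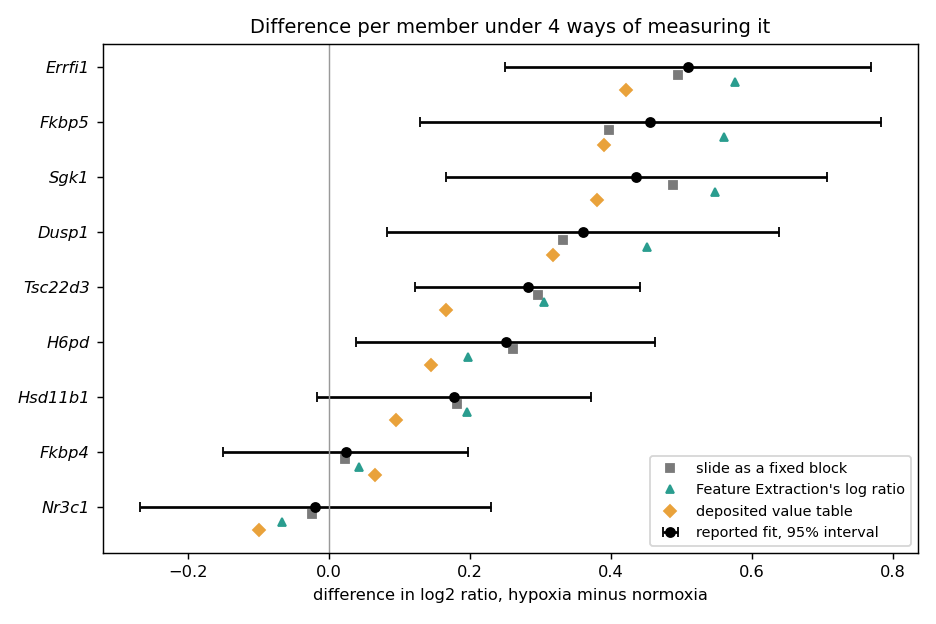
Difference in log2 ratio, hypoxia minus normoxia (horizontal axis), for the 9 tested members. Black points are the reported limma fit with its 95% confidence interval. Grey squares have the slide in the fit, and green triangles are the scanner software's own log ratio. Orange diamonds are the deposited value table, which holds log2 levels and not ratios to the pool. Squares, triangles and diamonds are drawn without their error. Errfi1 (0.51), Fkbp5 (0.46) and Sgk1 (0.44) lie farthest right, and Nr3c1 (-0.019) and Fkbp4 (0.023) lie near 0.

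All 12 adipocyte markers, among them Adipoq and Plin1, were well above background on all 22 arrays, as the tissue label says. Their mean level differed by 0.015 between the groups, with 9 above and 3 below 0; Adrb3, the beta-3 adrenergic receptor, was lower by -0.76 at an unadjusted p of 0.00697 (limma adjusted p = 0.746) and was picked out after its value was seen. Array brightness varied widely: Cy5 was well above background for 18.3% to 66.3% of spots in normoxia and 15.6% to 76.8% in hypoxia. The 4 arrays of slide 1, from both groups, did not exceed 18.9%. The slide of an array was read from the barcode in the name of its scan. Slide 2 held 2 normoxic and 0 hypoxic mice, and every other slide held 2 of each. Within groups a mouse's brightness correlated with Hsd11b1 at r = 0.638 and with the other tested members at -0.363 to 0.264 (22 arrays). Markers of some other cells also stood higher in hypoxia: smooth muscle and pericyte markers by a mean of 0.34 (7 of 7 above 0, 3 with an unadjusted p under 0.05; range -0.75 to 0.14 in normoxia and -0.45 to 0.28 in hypoxia) and red blood cell markers by 0.43 (4 of 4 above 0, 3 under 0.05; -0.76 to 0.58 and -0.36 to 1.03). Mesothelial markers differed by 0.19, mast cell markers by 0.14, endothelial markers by 0.068 and macrophage markers by 0.061. Sperm and epididymis markers went the other way, by -0.47 (4 of 4 below 0, 0 under 0.05; -2.58 to 2.28 and -2.28 to 0.71). Over all genes tested, 50.4% lay above 0, and at an unadjusted p under 0.05 2.58% were higher and 2.73% lower. The part of these cell types in the members' differences was not tested. In whole tissue more cells of a type and more RNA per cell cannot be told apart.

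**Figure D2:**
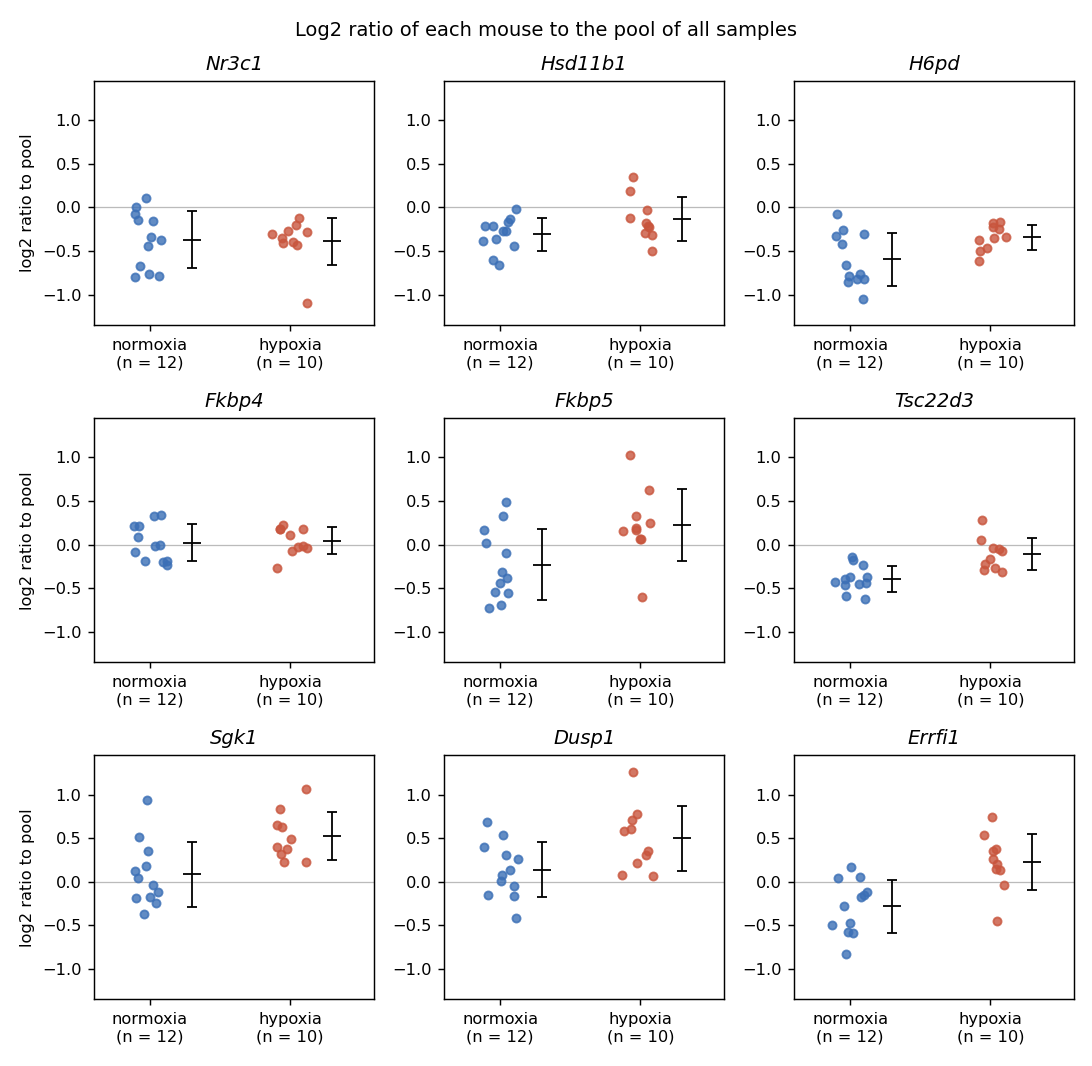
Log2 ratio to the pool (vertical axis) of the 9 tested members in each of 12 normoxic (blue) and 10 hypoxic (red) mice. Each point is a mouse, and the black bar beside the points is the mean with its SD. For Tsc22d3 and Sgk1 all 10 hypoxic mice lie above the normoxia mean, while for Fkbp4 and Nr3c1 no hypoxic mouse lies above the highest normoxic mouse and 1 lies below the lowest.

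Nr3c1 encodes the glucocorticoid receptor itself. In normoxia its log2 ratio was -0.79 at the lowest, -0.35 at the median and 0.11 at the highest, and in hypoxia -1.10, -0.33 and -0.12. The groups overlapped, with 6 of 10 hypoxic mice above the normoxia mean. The difference was -0.019 (95% confidence interval -0.269 to 0.230, limma unadjusted p = 0.874, adjusted p = 0.997), and shifts within that interval were not excluded. Hypoxia replicate 4 held the lowest value, and without it the difference was 0.060. In the scanner software's own log2 ratio this spot (-0.67) was not the lowest of its group. A second Nr3c1 probe, above background on 15 arrays, differed by -0.090 (SE 0.125, unadjusted p = 0.474).

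Nr3c2 encodes the mineralocorticoid receptor, which also binds corticosterone and is present in adipocytes. Its probe at chr8:79766370-79766429 (plus strand, mm9) was well above background in Cy5 in 2 normoxic and 2 hypoxic mice, though in the Cy3 pool on 15 arrays. Its ratios ran from -0.35 to 0.89 in normoxia and from -0.27 to 0.56 in hypoxia. The reported fit left this dim probe out. With no filter on dim probes its difference was -0.0036 (SE 0.112, limma adjusted p = 0.999), and Nr3c1 less Nr3c2 within an array differed by -0.016 (permutation p = 0.928, likewise adjusted over 3 pairs). These values rest mostly on signals near background.

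The activating enzymes both had means above normoxia, with H6pd at the smaller p. Hsd11b1, the reductase, is spotted 10 times on each array. Its ratio averaged over spots was -0.66, -0.27 and -0.018 in normoxia (lowest, median, highest) and -0.50, -0.19 and 0.35 in hypoxia. Only hypoxia replicate 3, the brightest array, and 1 other mouse lay above every normoxic value. The difference was 0.18 (95% interval -0.017 to 0.371, limma unadjusted p = 0.0721, adjusted p = 0.952), and it was positive on 4 of 5 slides. All 10 spots gave a difference above 0, between 0.072 and 0.30. Single spots of 1 array had a median SD of 0.167 (0.0901 to 0.337). The ratio averaged over spots had an SD between mice of 0.189 in normoxia and 0.251 in hypoxia. Scatter of single spots and scatter of averages are unlike measures, so the part of spot error in the spread between mice cannot be read from them.

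H6pd is hexose-6-phosphate dehydrogenase, the enzyme that makes NADPH inside the endoplasmic reticulum. Its ratio was -1.05, -0.71 and -0.077 in normoxia and -0.61, -0.34 and -0.17 in hypoxia. The hypoxic mice were the tighter group (SD 0.147 against 0.304), and 9 of 10 stood above the normoxia mean but none above the highest normoxic mouse. The difference was 0.25 (SE 0.103, limma unadjusted p = 0.0226, adjusted p = 0.868). It was positive on 5 of 5 slides, from 0.019 on slide 3 to 0.67 on the dim slide 1. Without slide 1 it was 0.16 with an unadjusted p of 0.151. Within arrays the enzymes did not separate: Hsd11b1 less H6pd averaged 0.28 ± 0.23 (SD) over the 12 normoxic mice and 0.21 ± 0.25 (SD) over the 10 hypoxic mice, a difference of -0.073 (permutation p = 0.481). Hypoxic mice lay above the normoxia mean of that ratio in 4 of 10 cases.

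The co-chaperones had different values, though the gap between them missed the adjusted threshold. Fkbp5 is the inhibitory one and a receptor target. Its ratio was -0.73, -0.35 and 0.48 in normoxia and -0.60, 0.18 and 1.02 in hypoxia. These are values of the A-rich probe shown above, for which binding of other transcripts was not tested. Hypoxia replicate 2 was the lowest of its group at -0.60, while the other 9 hypoxic mice lay at 0.058 or above and over the normoxia mean; 2 exceeded every normoxic mouse. The difference was 0.46 (SE 0.160, 95% interval 0.128 to 0.783, limma unadjusted p = 0.00821, adjusted p = 0.774). It was positive on 5 of 5 slides, by 0.16 to 0.62. Slide 2, with normoxic mice only, averaged -0.52 for Fkbp5. Without that slide the difference was 0.40 (limma unadjusted p = 0.0249, adjusted p = 0.978). Without hypoxia replicate 7, the highest mouse, it was 0.37, and without replicate 2 it was 0.55.

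Fkbp4 is the co-chaperone that accompanies the receptor to the nucleus. Its ratio was -0.24, -0.011 and 0.34 in normoxia and -0.26, 0.047 and 0.23 in hypoxia, with 5 of 10 hypoxic mice above the normoxia mean. The difference was 0.023 (95% interval -0.150 to 0.197, limma unadjusted p = 0.784, adjusted p = 0.995). Its signal was above background on 18 arrays. Fkbp5 less Fkbp4 within an array averaged -0.25 ± 0.43 (SD) over the 12 normoxic mice and 0.18 ± 0.49 (SD) over the 10 hypoxic mice, and 9 of 10 hypoxic mice lay above the normoxia mean. That gap of 0.43 had a permutation p of 0.0400, which became 0.0799 after Benjamini-Hochberg adjustment over the 2 pairs tested and so missed the threshold. Without hypoxia replicate 2 it was 0.54 (permutation adjusted p = 0.0141) and without normoxia replicate 6 it was 0.52 (0.0148). Normoxia replicate 6 held the highest normoxic Fkbp5 value, and its array had the lowest quality weight (0.24). Without hypoxia replicate 7 it was 0.33 (permutation adjusted p = 0.173), without normoxia replicate 8 it was 0.36 (0.140) and without slide 1 it was 0.37 (0.210). Without slide 2, which held no hypoxic mouse, it was 0.38 (permutation adjusted p = 0.186). With the slide as a fixed block it was also 0.38 (adjusted p = 0.0587, permuting mice within slides). On slides it ran from 0.074 to 0.66. The highest was slide 1, where Fkbp4 was not above background in Cy5 on any array.

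Among the induced genes Errfi1 had the smallest p of all members, rank 21 of 16578. Errfi1 (also called Mig6 or Gene 33) binds and inhibits the EGF receptor and is induced by glucocorticoids and by growth factors. Its ratio was -0.83, -0.22 and 0.17 in normoxia and -0.45, 0.23 and 0.75 in hypoxia. Of the hypoxic mice 6 of 10 exceeded every normoxic mouse and 9 exceeded the normoxia mean, with replicate 2 again lowest. The difference was 0.51 (SE 0.127, 95% interval 0.249 to 0.769, limma unadjusted p = 0.000429, adjusted p = 0.339). On slides it was positive 5 times of 5, from 0.33 to 0.75.

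Tsc22d3 (GILZ) carries much of the anti-inflammatory action of glucocorticoids and restrains fat cell formation. Its ratio was -0.62, -0.41 and -0.15 in normoxia and -0.31, -0.12 and 0.28 in hypoxia. All 10 hypoxic mice lay above the normoxia mean, 5 lay above every normoxic mouse, and 9 of 12 normoxic mice lay below every hypoxic mouse. The difference was 0.28 (SE 0.0777, limma unadjusted p = 0.00121, adjusted p = 0.499, rank 39), positive on 5 of 5 slides between 0.12 and 0.47.

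Sgk1 is a kinase that regulates sodium channels and FoxO factors and is induced by glucocorticoids, mineralocorticoids and cell stress. Its ratio was -0.37, 0.0061 and 0.94 in normoxia and 0.22, 0.44 and 1.07 in hypoxia. The 10 hypoxic mice all lay above the normoxia mean and 9 of 12 normoxic mice below the lowest of them, but normoxia replicate 9 reached 0.94 and only 1 hypoxic mouse exceeded it. The difference was 0.44 (SE 0.132, limma unadjusted p = 0.00271, adjusted p = 0.569, rank 79). It was positive on 5 of 5 slides, by 0.24 to 0.80.

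Dusp1 is a nuclear phosphatase that switches off MAP kinases; it is a receptor target and also an immediate early gene of stress. Its ratio was -0.42, 0.11 and 0.69 in normoxia and 0.070, 0.47 and 1.26 in hypoxia, with 8 of 10 hypoxic mice above the normoxia mean and 3 above every normoxic mouse. The difference was 0.36 (SE 0.135, limma unadjusted p = 0.0132, adjusted p = 0.830). Slide 6 went the other way at -0.086, and the other 4 slides were positive, up to 0.74. Hypoxia replicate 10 was the highest mouse, and without it the difference was 0.27.

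**Figure D3:**
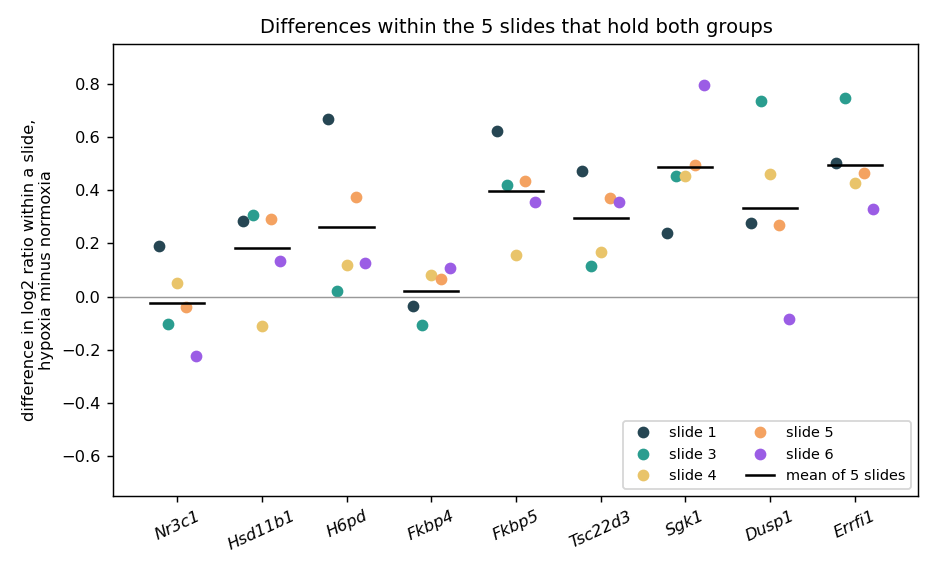
Difference in log2 ratio within a slide (vertical axis, mean of 2 hypoxic less mean of 2 normoxic mice) for each tested member on the 5 slides that hold both groups, with the mean of the 5 as a bar. Fkbp5, Tsc22d3, Sgk1, Errfi1 and H6pd lie above 0 on all 5 slides, and the highest H6pd value (0.67) is that of slide 1.

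The 9 members did not rise and fall as 1 block among mice of a group: 17 of 36 pairs correlated above 0. Counted per mouse, 6 to 9 of the 9 members lay above their normoxia means in hypoxic mice (median 7.5), against 2 to 8 in normoxic mice (median 4). The normoxic mice set those means, so their counts lie near the middle by construction. The hypoxic counts restate the members' differences and do not show how members vary together. Hypoxia replicate 7 was the highest hypoxic mouse in Fkbp5, Tsc22d3, Errfi1 and H6pd, and it lies on the dim slide 1. Hypoxia replicate 2 was the lowest in Fkbp5, Tsc22d3 and Errfi1, and it had the highest macrophage and red blood cell marker levels of its group. Whether marker levels or brightness bear on these 2 mice was not tested.

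**Figure D4:**
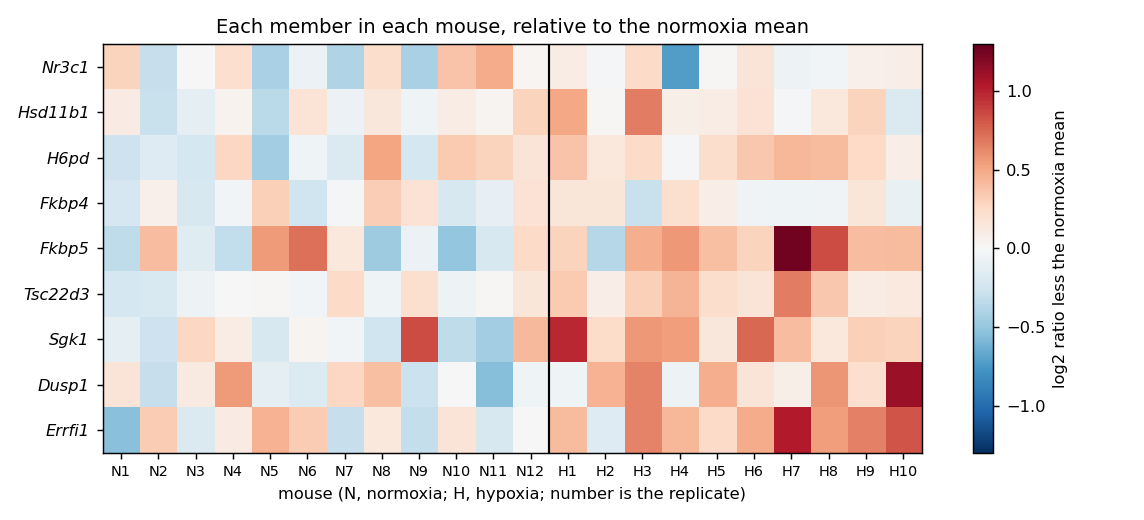
Log2 ratio of each tested member less its normoxia mean (colour; red higher, blue lower) in the 12 normoxic (N) and 10 hypoxic (H) mice. The rows Fkbp5, Tsc22d3, Sgk1 and Errfi1 are mostly red on the hypoxic side, and the deepest blue cell of the Nr3c1 row is hypoxia replicate 4.

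Deviations of the mice from their group means were correlated for the 36 pairs of tested members, and 2 pairs passed an adjusted p of 0.05. Fkbp5 and Errfi1 gave Pearson r = 0.648 over 22 mice (permutation p = 0.00220, Benjamini-Hochberg adjusted p = 0.0396). Their Spearman rho was 0.531 (permutation p = 0.0153, adjusted p = 0.138). It was 0.528 in Pearson r without the 2 mice farthest from the median of Fkbp5, 0.579 with slide means removed, 0.495 in normoxia and 0.822 in hypoxia. In both genes hypoxia replicates 2 and 7 were the lowest and the highest hypoxic mouse, and r in hypoxia without them was not computed.

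Nr3c1 and H6pd were the other pair, with r = 0.666 (permutation p = 0.00185, adjusted p = 0.0396) and rho = 0.618 (permutation p = 0.00742, adjusted p = 0.110). The r was 0.572 without the 2 mice farthest from the median of Nr3c1 and 0.634 with slide means removed. Neither rho passed the adjusted threshold, so both pairs rest on the linear measure. The target genes Fkbp5 and Tsc22d3 gave r = 0.484 (permutation adjusted p = 0.200) and rho = 0.47 (0.191). That r was 0.379 without the 2 mice farthest from the median of Fkbp5. It was 0.803 in hypoxia and 0.160 in normoxia, a contrast that was not tested. In both of these genes hypoxia replicates 2 and 7 were again the lowest and the highest hypoxic mouse. Nr3c1 and Fkbp5 gave negative values, r = -0.47 (permutation adjusted p = 0.208) and rho = -0.670 (0.0630), and neither passed the threshold. Their r was -0.320 with slide means removed, -0.676 in normoxia and -0.166 in hypoxia, a contrast that was not tested.

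**Figure D5:**
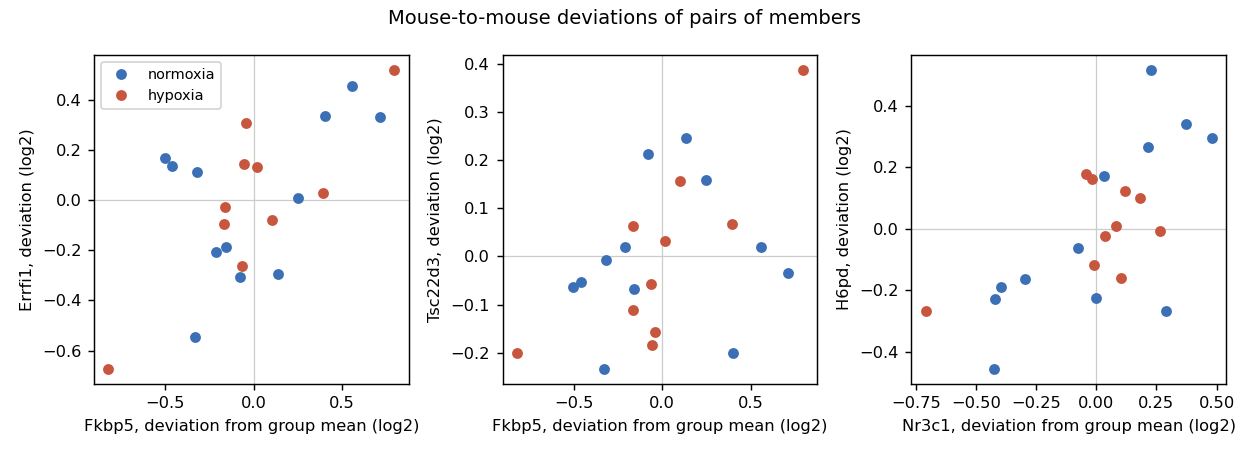
Deviation of each mouse from its group mean on the log2 scale, for Errfi1 and Tsc22d3 against Fkbp5 and for H6pd against Nr3c1 (blue normoxia, red hypoxia). The points rise together in the outer panels (r = 0.648 and 0.666), and in the first panel the hypoxic mice at both ends are replicates 2 and 7.

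With group and slide means removed, the 5 named genes of 12515 most like Fkbp5 over the 22 arrays were Zfp512b (r = 0.837), Cfap410 (0.805), Apba3 (0.780), Sult1e1 (0.779) and Cpz (0.774). Errfi1 stood at rank 224 and Tsc22d3 at rank 1053 of 16480 genes by that measure. Most like Tsc22d3 were Aldh1a1 (0.759), Gpx1 (0.745), Rarg (0.723), Bst2 (0.721) and Gata3 (0.700), with Sgk1 at rank 353 and Fkbp5 at rank 631. These are descriptions over arrays that share brightness and slide.

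Other genes that glucocorticoids induce leaned the same way. Of 30 listed, 29 were tested: 26 lay above 0, 11 were higher and 0 lower at an unadjusted p under 0.05, and 0 passed the adjusted threshold. Over all genes tested, 50.4% lay above 0, 2.58% were higher and 2.73% lower. The list's median difference was 0.17 against 0.0011 for all genes. The 5 with the smallest p were Gadd45g (0.72), a stress gene of growth arrest, Mt2 (1.13), a metallothionein, Cebpd (0.53), a transcription factor of early adipogenesis, Mertk (0.31), a receptor for engulfing dead cells, and Ddit4 (0.45), an inhibitor of mTORC1 that low oxygen also induces. Several genes of this list answer to oxygen or to fasting as well as to the hormone. The list was drawn up with earlier results of these data known and is no independent evidence of its direction.

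The machinery around the receptor had medians nearer 0. The tested chaperones and co-chaperones had a median difference of 0.029, and none passed the adjusted threshold in limma's fit. Among 15 coregulators none was under 0.05 in limma's fit, the median was -0.019, and Ncoa3 had the smallest p at -0.13 (unadjusted p = 0.146). Of 16 genes of glucocorticoid metabolism, transport and NADPH supply, 8 were tested and none was under 0.05. The cytosolic NADPH enzyme G6pdx had the smallest p there, at 0.16 (unadjusted p = 0.0666). Over all genes tested, 5.3% were under an unadjusted p of 0.05 in either direction.

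Inflammatory genes that glucocorticoids repress were mostly too dim to test. Of 17, 7 were tested, all 7 lay above 0 with a median of 0.14, and none was under an unadjusted p of 0.05. Over all genes tested, 50.4% lay above 0 and 5.3% were under 0.05 in limma's fit. Vcam1, an adhesion molecule, had the smallest p of the 7, at 0.20 (unadjusted p = 0.0705). The untested ones include Il6 and Tnf.

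Relatives of the induced members differed between lists. Of all genes tested 50.4% lay above 0, and 2.58% were higher and 2.73% lower at an unadjusted p under 0.05. Of the other MAP kinase phosphatases 7 of 8 lay above 0, with a median of 0.082. At an unadjusted p under 0.05, 2 of 8 were higher, Dusp9 (0.41) and Dusp2 (0.26). In the EGF receptor list around Errfi1, 9 of 11 lay above 0, with a median of 0.10. There 3 of 11 were higher, the ligands Hbegf (0.29) and Btc (0.19) and the inhibitor Spry4 (0.25). Around Sgk1, 4 of 10 lay above 0, with a median of -0.033. There 0 of 10 were higher and 1 was lower, Gsk3b at -0.27, whose other tested probes gave -0.011 and -0.038. The relatives of Tsc22d3 gave 0.069 (Tsc22d4, whose other tested probes gave -0.080 and 0.080) and 0.060 (Tsc22d1). Of the other FKBP immunophilins 6 of 11 lay above 0, with a median of 0.030, and 1 of 11 was higher, Fkbp7 at 0.21. None of these passed the adjusted threshold in limma's fit.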

How the data were processed

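Arrays of 22 mice were analysed. Feature Extraction 10.7.3.1 wrote the deposited scanner files, per the submitters' processing notes. The intensity values used (mean signals and median backgrounds) are deposited as scanned. The software also deposited a log10 ratio (Cy5 over Cy3) that it had dye-normalized itself. A value table deposited by the authors holds log2 levels, with a median of 6.299 on every array; no source used here states how it was normalized. The deposited flags and background calls are 0 or 1.

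Backgrounds were corrected with normexp (offset 50) and arrays normalized by loess in limma 3.58.1 (R 4.3.3), with control spots at weight 0. Flagged non-uniform or outlying spots were left out, spots of a probe were averaged, and saturated spots were kept. Probes were tested if Cy5 exceeded background clearly on 10 or more arrays, with 2 or more values per group; the brightest probe stood for a gene. Of the probes, 27235 were named by accession through RefSeq's GRCm38.p6 table, 3581 by symbol, 565 by synonym, and 24300 kept the file's name.

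The fit had group as its only term (lmFit, eBayes), over all genes, with Benjamini-Hochberg adjustment and a threshold of 0.05. Pairs of members were compared by two-sided permutation tests with 100000 resamples, and correlations by permuting mice within groups. The method was tested on simulated data, and precision is limited by the number of arrays. Members and lists were chosen with earlier results of these data known. All members are named; of each other list, those with an unadjusted p under 0.05 up to 5, or else the smallest p; and the 5 genes most like Fkbp5 and Tsc22d3. A result from the chaperone list is not reported here. The runs of bases shared between probes and the scaling between arrays were added after seeing the data.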

Additional observations from a re-analysis of the deposited data

Results flagged for a closer look

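Nr3c1 in hypoxia replicate 4 was -1.10, far below the other 9 hypoxic mice, which lay between -0.43 and -0.12. Its distance to the nearest mouse was 0.684 of the group's range. In the scanner software's own log2 ratio the same spot was -0.67 and not the lowest of its group (replicate 7 was -0.81 and replicate 8 was -0.70), and on the second Nr3c1 probe this mouse was -0.36, within the range of the others (-0.74 to -0.049). The same mouse was also the lowest of its group for H6pd (-0.61). Of the 9 member values searched in this way, chance gives about 0.45 such gaps. No cause was tested.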

How the results depend on the processing

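No member passed the adjusted threshold under any of the 36 other settings run, and Errfi1, Fkbp5, Sgk1, Dusp1, Tsc22d3, H6pd and Hsd11b1 stayed above 0 in each. The number of members with an unadjusted p under 0.05 was 6 as reported, 5 to 7 under the other settings, and 0 with the deposited value table, where the differences of these 7 were smaller (Errfi1 0.42, Fkbp5 0.39, Sgk1 0.38, Dusp1 0.32, Tsc22d3 0.17, H6pd 0.14, Hsd11b1 0.095) and the standard errors larger (0.24 to 0.38); the cause was not tested. H6pd was the member lost without slide 1 (0.16), with Feature Extraction's log ratio (0.20) and with array quality weights (0.17), and Dusp1 with the replicate number as a replicate block (0.30). Leaving out 1 mouse at a time gave 6 or 7.

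Over all genes, 0 passed as reported, and 2 with the slide as a fixed block, 1 with the slide as a random block, 2 without slide 1, 1 with Feature Extraction's log ratio, 2 with only probes above background on all 22 arrays, 4 with array quality weights and 1 with scaling between arrays, which was added after seeing the data. Leaving out a mouse gave 0 to 3, the most without hypoxia replicate 7. These genes were Adgrf5, Pip5k1a, Mt2, Gadd45g and 8030425K09Rik, none of them a member, named after their values were seen. Of the genes with an unadjusted p under 0.05, 48.6% were higher as reported, 38.1% with array quality weights and 37.7% without normoxia replicate 6.

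Signs turned for the members near 0. Leaving out 1 mouse at a time, Nr3c1 ran from -0.058 to 0.060 and Fkbp4 from -0.00023 to 0.058. Nr3c1 was above 0 with the replicate block (0.032), without hypoxia replicate 4 (0.060) and without normoxia replicates 1 (0.0070), 4 (0.00011), 8 (0.0011), 10 (0.014) and 11 (0.024). Fkbp4 was -0.00023 without normoxia replicate 6. Fkbp5 less Fkbp4 passed with scaling between arrays (0.47, permutation adjusted p = 0.0398) and, leaving out 1 mouse at a time, ranged from 0.33 to 0.54. Replicate numbers shared by both groups (10) do not pair the mice: deviations correlated at -0.473 to 0.245, 2 of 10 over 0.1, and 0 correlated best with their own number. The block gave 0.43 for Fkbp5 less Fkbp4 and -0.087 for Hsd11b1 less H6pd, with permutation adjusted p-values of 0.229 and 0.359. Aquantile scaling leaves ratios as they are. Fkbp4 was too dim to test on all 22 arrays, and the pairs were not run with array weights or a random block. Array brightness limits what can be said of dim probes such as Nr3c2.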
